A study of Mus musculus with 28 samples.

Results

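The collagens and fibrosis matrix genes examined here are 44 genes listed by symbol for their known roles in the matrix. They comprise 6 fibrillar collagens, 9 basement membrane genes, 7 other collagens, 6 elastic fibre genes, 6 matrix glycoproteins, 4 proteoglycans, 3 cross-linking enzymes and 3 TGF-beta ligands. All 44 are among the 32544 genes of both deposited count tables, 1 for males and 1 for females. All 44 also passed the filter on low counts, in a set of 14078 tested genes in males and 13999 in females. The tables hold 28 libraries, each made from the whole liver of 1 C57BL/6 mouse, aged 13 weeks by the labels. Control mice with floxed alleles (CT) were set against EC-Myc KO mice (KO), whose c-Myc gene is deleted in endothelial cells by a tamoxifen-induced Cre. Both genotypes had received tamoxifen at 5 weeks of age and, 2 weeks after it, 5 weeks of feeding: the control diet (CTD) was low in fat, the other (HFC) high in fat and cholesterol. Each of the 4 genotype and diet groups held 4 males or 3 females. The promoter that drives Cre is not given in the sources used here, nor whether animals of a group came from separate litters or cages, so p-values measure the spread between these mice. Animals on CTD carry numbers from 298 to 320 and those on HFC from 412 to 543, so the diet cannot be told apart from any difference between the cohorts behind those numbers.

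In the liver, fibrillar collagens are laid down mainly by hepatic stellate cells that have turned into myofibroblasts, with portal fibroblasts contributing around the bile ducts. TGF-beta, stored in a latent form bound to the matrix, is the best known signal for this switch, and lysyl oxidases then cross-link collagen and elastin into stable fibres. Scar matrix is therefore read at the RNA level from collagens I and III, their cross-linking enzymes and the glycoproteins that assemble with them. Hepatocytes, by contrast, are a large source of plasma fibronectin and of the collagen XVIII that carries endostatin.

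Libraries held 22154774 to 22652285 counts in males and 18741939 to 19195502 in females. Levels are given as counts per megaread of library (CPM), adjusted with trimmed mean of M-values (TMM) factors, which ran from 0.862 to 1.19 in males and 0.842 to 1.17 in females. Myc RNA does not report the endothelial deletion in whole liver. On HFC its KO to CT ratio was 1.36 in males (95% interval 0.611 to 3.04, edgeR quasi-likelihood test, adjusted p = 0.96) and 1.54 in females (0.653 to 3.61, adjusted p = 1). On CTD the ratio was 1.75 in males (0.763 to 4.02, adjusted p = 0.842) and 1.62 in females (0.685 to 3.82, adjusted p = 0.999). Hepatocyte markers dominated every library, with summed levels of 68100 to 180000 CPM over the 8 genes of that list. Stellate, endothelial, macrophage and bile duct markers were all present as well.

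Single livers stood apart within their groups in matrix genes. For each liver the log2 level of every matrix gene was set against the mean of the CT CTD livers of its sex, and the median over the 44 genes was taken. Male KO HFC 414 had a median of 1.40, with 32 of 44 genes more than 1 log2 unit above that mean, while the other 3 KO HFC males had medians of 0.24 to 0.36. Male CT CTD 320 stood at 0.62 with 11 genes above 1 log2 unit, against -0.50 to -0.05 in the other 3 CT CTD males. Female KO HFC 412 had a median of 0.64 with 17 genes above 1 log2 unit, and KO HFC 413 one of 0.69 with 13 genes. Liver 412 also had the highest macrophage sum of all 28 livers, 1250 CPM against 417 and 894 in the other KO HFC females, and a cholangiocyte sum of 193 against 68.7 and 59.5 CPM. The part of these markers in its matrix level was not tested. Where leaving out 414 in KO males or 320 in CT males moved the diet count of a related list below, the count without it is given too. For the matrix genes, those called without each of these livers are listed together.

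**Figure D1:**
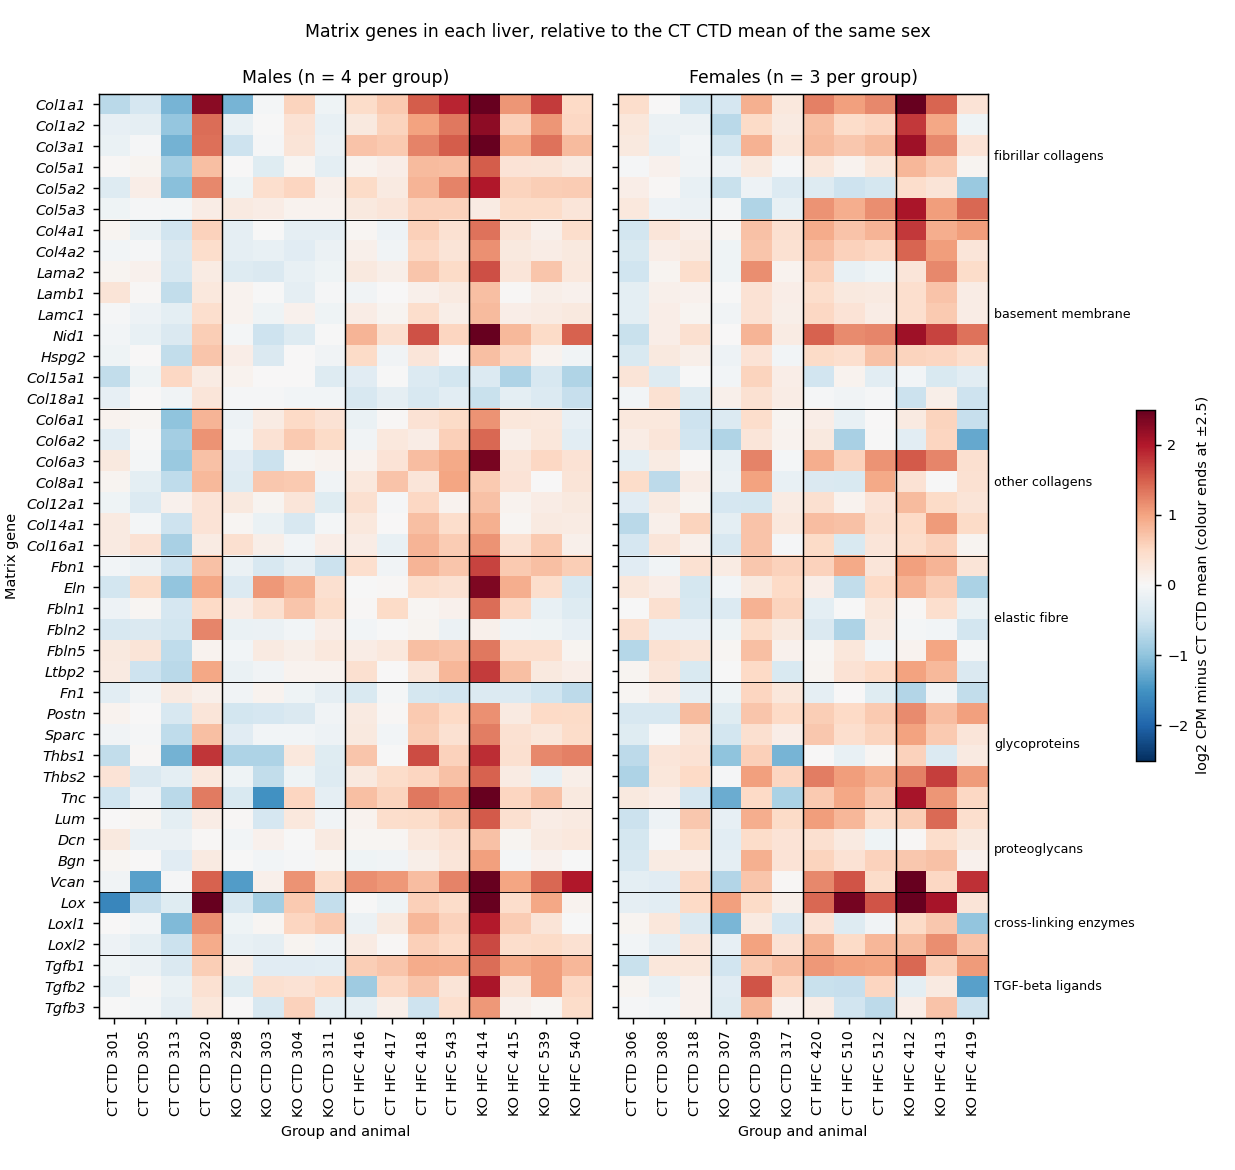
Log2 CPM of each of the 44 matrix genes (rows, in 8 classes) in each liver (columns), minus the mean of the CT CTD livers of the same sex, with red higher and blue lower and the colour scale ending at 2.5. Male KO HFC 414 is red in most rows (median 1.40), male CT CTD 320 is red in the Col1a1, Thbs1 and Lox rows, and Col18a1 and Col15a1 are blue in the HFC males.

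By level per kilobase of exon, 2 genes led in males: Fn1, fibronectin, at 170 CPM per kb and Col18a1 at 129 CPM per kb, averaged over all males. Next came the small proteoglycans Dcn (decorin, 23.1 CPM per kb) and Bgn (biglycan, 17.1 CPM per kb) and the collagen-binding glycoprotein Sparc (15.6 CPM per kb). Females had the same first 5 genes, with Fn1 at 90.8, Col18a1 at 88.2, Dcn at 30.8, Bgn at 21.1 and Sparc at 20.8 CPM per kb. The classical scar collagens lay far lower, with Col3a1 at 4.27 and Col1a1 at 2.54 CPM per kb in males. At the bottom were Col8a1 at 0.0634 and Vcan at 0.0453 CPM per kb. Fn1 and Col18a1 together took 61.7% to 88.2% of the summed CPM of all 44 genes in a male liver and 48.7% to 77.6% in a female liver. A summed matrix level in these livers is thus weighted heavily to those genes.

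The first comparison asks what the diet did in each genotype. In CT males, 2 matrix genes rose on HFC, Col5a3 and Tgfb1, and 1 fell, Col18a1, at an adjusted p under 0.05 (edgeR, Benjamini-Hochberg over all tested genes). For all tested genes in that comparison, 10.6% were called higher and 9.40% lower. In KO males 16 of the 44 rose and 2 fell, beside 15.5% of all genes called higher and 13.6% called lower. Higher calls were thus a smaller share of the matrix genes than of all genes in CT males and a larger share in KO males. The median log2 change over the 44 was 0.28 in CT males and 0.74 in KO males, where the medians of all tested genes were -0.01 and -0.02. CT females had 2 matrix genes called higher, Col5a3 and Nid1, beside 0.936% of all genes higher and 1.26% lower. KO females had 3, namely Col5a3, Nid1 and Tnc, beside 3.94% higher and 4.65% lower. The female calls also moved when 1 liver was left out, which leaves fewer samples. The CT pair was lost without any 1 of 306, 308, 420, 510 or 512. KO females kept Col5a3 and Nid1 without 412, 413 or 419, with 2 called without 412 and 10 without 419. Over all genes, leaving out 1 liver gave 72 to 417 calls in CT females, beside 307 with every liver. In KO females it gave 565 to 2671, beside 1202. The median over the 44 was 0.33 in CT females and 0.43 in KO females, with all tested genes at 0.00 and 0.02. Scaled to library totals instead of TMM, the medians of all genes moved to between 0.22 and 0.32, and the matrix genes called higher were 2, 28, 8 and 16 in the order CT males, KO males, CT females and KO females, with none lower. Genes called over the whole table then split into 4127 higher and 410 lower in CT males, 5585 and 511 in KO males, 1687 and 145 in CT females and 3358 and 380 in KO females. In whole liver, more cells of a type and more RNA per cell cannot be told apart.

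These male counts moved when single livers were left out, which also leaves fewer samples. Without KO HFC 414 the KO males had 5 matrix genes called higher (Fbn1, Lama2, Nid1, Postn and Tgfb1), 1 lower (Fn1) and a median of 0.33, beside 12.1% of all genes called higher and 9.48% lower, so the share of matrix genes called higher was near that of all genes. Leaving out other KO males also cut the count: 6 genes were higher without KO CTD 298, 6 without 303 and 6 without 311. Over all genes, leaving out 1 KO male gave 3065 to 4090 calls in either direction, beside 4102 with every liver. Without CT CTD 320 the CT males had 4 higher (Col3a1, Col5a3, Tgfb1 and Thbs1), none lower and a median of 0.48, beside 12.6% and 11.1% of all genes. With both 320 and 414 left out, 19 rose in CT males, beside 14.7% of all genes called higher. In KO males 13 then rose, beside 13.9%, and 2 fell, Fn1 and Col18a1, beside 9.58%. Their medians were 0.50 and 0.34. In that fit 11 genes were called in both genotypes, which is 57.9% of the CT calls and 73.3% of the KO calls: Col3a1, Col4a2, Col5a3, Fbn1, Loxl2, Nid1, Postn, Sparc, Tgfb1, Thbs1 and Vcan. With every liver kept, 2 genes were called in both, Tgfb1 and Col18a1. Livers 320 and 414 were singled out by these same genes, and leaving them out narrows the spread that all 4 male groups share, so the calls without them are a description.

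**Figure D2:**
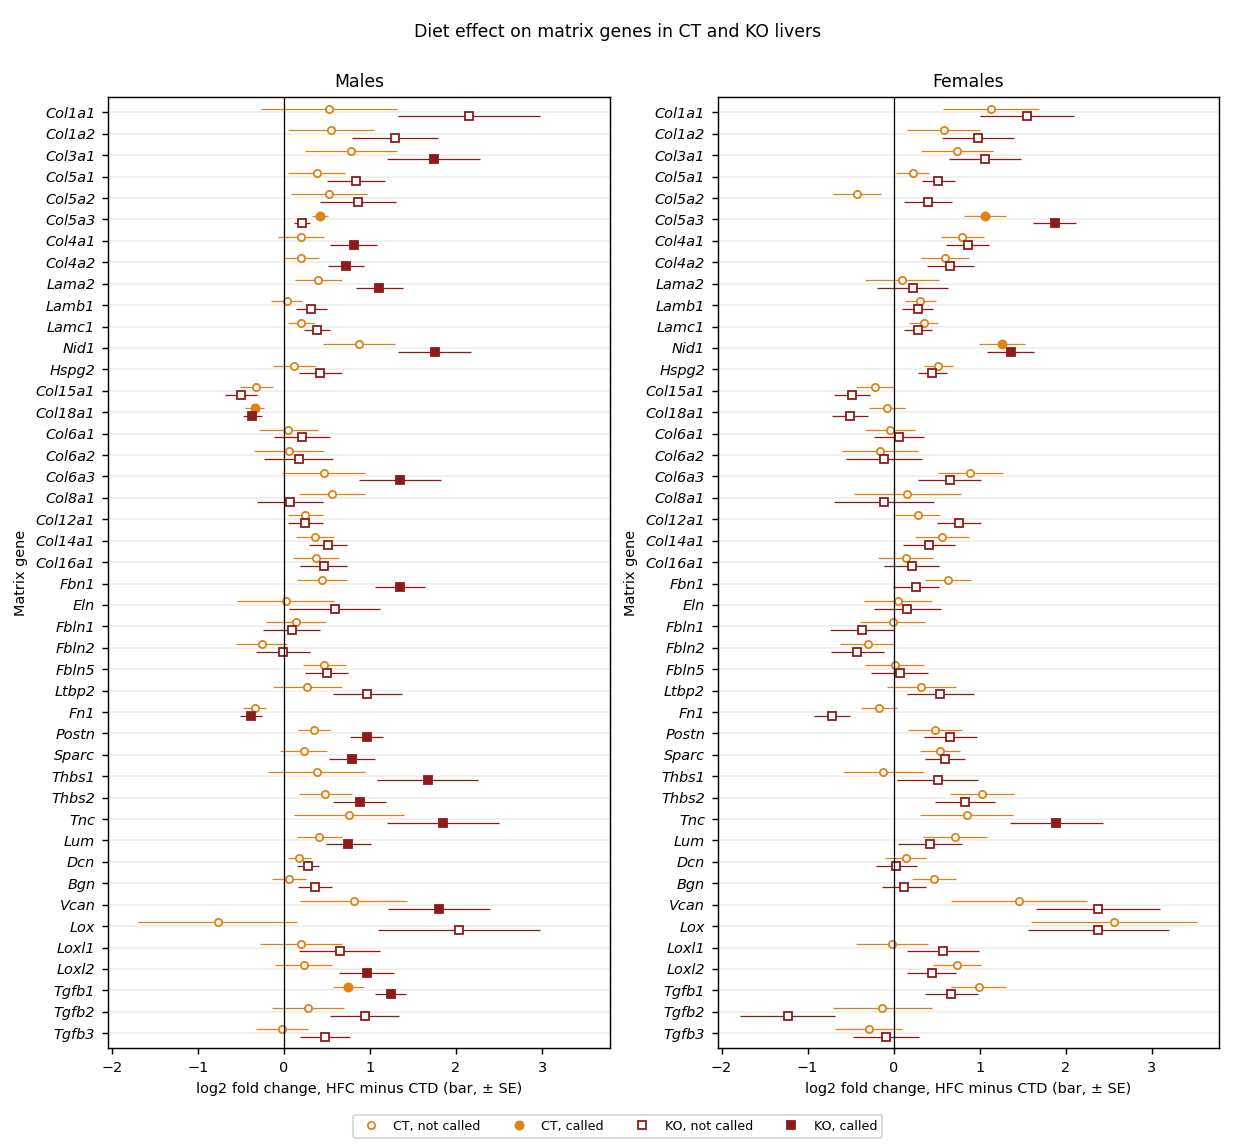
Log2 fold change from CTD to HFC for each matrix gene, with bars of 1 standard error, in CT (orange circles) and KO (dark red squares) livers of each sex. Filled symbols passed an adjusted p of 0.05: 3 in CT males, 18 in KO males, 2 in CT females and 3 in KO females.

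The fibrillar collagens form the stiff fibres of scar, with collagen I and III as the bulk and collagen V as a minor chain that sets fibre width. Col1a1 (GRCm38 chr11:94936224-94953042) stood at 4.51, 5.38, 3.17 and 34.9 CPM in the CT CTD males and at 9.98, 11.4, 20.7 and 27.5 CPM in the CT HFC males. In KO males it was 3.19, 6.98, 10.7 and 6.73 CPM with CTD against 71.4, 15.7, 24.5 and 10.3 CPM with HFC. The single value of 34.9 CPM, in CT CTD 320, lies above all 4 CT HFC livers, while the other 3 CT CTD livers lie below all of them. The log2 change was 0.52 (SE 0.79, edgeR adjusted p = 0.691) in CT males and 2.15 (SE 0.83, adjusted p = 0.0704) in KO males, so neither passed. Without 320 alone, Col1a1 did not pass in CT males either. Without 320 and 414 the CT change was 2.02 (SE 0.50). That value is a description, since 320 was singled out by genes that include Col1a1.

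Female livers gave Col1a1 at 10.9, 8.06 and 5.79 CPM in CT CTD and 19.2, 16.3 and 18.5 CPM in CT HFC, with no overlap. KO females had 5.90, 14.9 and 9.62 CPM with CTD against 57.3, 22 and 10.1 CPM with HFC, which overlap. The female changes were 1.13 (SE 0.56, adjusted p = 0.291) and 1.55 (SE 0.55, adjusted p = 0.114). The 3 CT HFC females sat close together, whereas the KO HFC females spread from the level of the control diet to the highest female value.

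Col3a1 (chr1:45311538-45349706), which encodes collagen III, was called in KO males: 15.7, 21.9, 28 and 20.2 CPM on CTD against 147, 43.2, 57.4 and 38.8 CPM on HFC, a log2 change of 1.74 (SE 0.54, edgeR adjusted p = 0.0278). All 4 KO HFC livers lay above all 4 KO CTD livers, and liver 414 was more than the other 3 together. Without 414 the change was 1.12 (SE 0.47, adjusted p = 0.114). In CT males the change was 0.78 (SE 0.53, adjusted p = 0.33), with 20.0, 22.1, 9.83 and 58.2 CPM with CTD against 36.7, 35.3, 53.3 and 64.0 CPM with HFC. Col1a2, the partner chain of Col1a1, changed by 0.55 (SE 0.50, adjusted p = 0.481) in CT males and 1.29 (SE 0.50, adjusted p = 0.073) in KO males, and by 0.58 and 0.98 in CT and KO females. Female Col3a1 changed by 0.74 (SE 0.42, adjusted p = 0.346) in CT and 1.06 (SE 0.42, adjusted p = 0.141) in KO.

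Col5a3, a collagen V chain that is less widely expressed than its partners, was the fibrillar gene called most often. CT males had 33.5, 35.1, 34.5 and 40.6 CPM with CTD against 42.3, 44, 53.2 and 53.5 CPM with HFC, a log2 change of 0.42 (SE 0.09, edgeR adjusted p = 0.00322). In KO males the change was 0.21 (SE 0.09, adjusted p = 0.0882), with liver 414 at 41.1 CPM, the lowest of the KO HFC group. This is the one fibrillar gene in which 414 was not the highest KO HFC liver. CT females rose from 14.0, 10.8 and 10.6 CPM to 25.7, 22 and 26.2 CPM, by 1.06 (SE 0.24, adjusted p = 0.0424). KO females rose from 11.3, 6.94 and 10.3 CPM to 48.7, 24.3 and 31.7 CPM, by 1.87 (SE 0.25, adjusted p = 0.00104). No CTD female of either genotype reached the lowest HFC female.

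Basement membranes are thin sheets of collagen IV, laminin, nidogen and perlecan that lie under epithelia and vessels, and the liver sinusoid normally has an incomplete one. Nid1 (chr13), the nidogen that links laminin to collagen IV, rose in KO males from 17.9, 12.9, 14.8 and 18.3 CPM to 105, 32.6, 25.6 and 51.3 CPM, a log2 change of 1.75 (SE 0.42, edgeR adjusted p = 0.00774). In CT males it was 17.5, 16.3, 14.3 and 28.5 CPM with CTD against 33.4, 24.5, 55.8 and 26.9 CPM with HFC, and the change of 0.87 (SE 0.42, adjusted p = 0.161) did not pass. The overlap there came from CT CTD 320 alone. Females rose in both genotypes, from 7.44, 12.3 and 14.4 to 30.8, 25.0 and 25.8 CPM in CT (1.26, SE 0.27, adjusted p = 0.0393). In KO females Nid1 went from 11, 19.8 and 12.7 to 48.0, 35.8 and 28.1 CPM (1.36, SE 0.27, adjusted p = 0.0106).

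The collagen IV genes Col4a1 and Col4a2 lie head to head on chromosome 8 and share 22 exon bases. In KO males Col4a1 rose by 0.81 (SE 0.27, edgeR adjusted p = 0.0367), from 26.7, 31.1, 26.9 and 26.6 CPM to 79.7, 39.3, 34.1 and 42.4 CPM. Col4a2 rose by 0.72 (SE 0.21, adjusted p = 0.0188), from 16.4 to 18.2 CPM up to 22.9 to 44.1 CPM. The laminin chain Lama2 rose by 1.11 (SE 0.27, adjusted p = 0.00515), from 1.54 to 1.87 CPM up to 2.45 to 6.37 CPM. For all 3 genes the KO HFC males lay above the KO CTD males without overlap. How many of all tested genes also lack overlap between the diets was not counted, for these or the other genes named. Without 414, Lama2 was still called, while Col4a1 and Col4a2 were not. In CT males Col4a1 changed by 0.20 (SE 0.27, adjusted p = 0.648), and in females by 0.80 (SE 0.25, adjusted p = 0.117) in CT and 0.86 (SE 0.25, adjusted p = 0.0515) in KO.

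Col18a1 went the other way. Its CT males had 890, 1030, 968 and 1270 CPM with CTD against 777, 878, 779 and 861 CPM with HFC, a log2 change of -0.34 (SE 0.11, edgeR adjusted p = 0.0364). KO males had 1010, 1010, 979 and 981 CPM with CTD against 705, 866, 814 and 694 CPM with HFC, a change of -0.37 (SE 0.11, adjusted p = 0.0163). In both genotypes every HFC male lay below every CTD male. Col18a1 was not called in CT males without 320 or in KO males without 414, though it was called in KO males without both. In females the change was -0.08 (SE 0.21, adjusted p = 0.873) in CT and -0.51 (SE 0.21, adjusted p = 0.153) in KO. Col15a1, the other collagen of this subfamily, was below 0 in all 4 diet comparisons, from -0.22 to -0.50, and passed in none of them by edgeR (smallest adjusted p = 0.0548). Lamb1, Lamc1 and Hspg2, which encode laminin chains and perlecan, changed by 0.03 to 0.52 across the 4 comparisons without passing.

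Of the other collagens, Col6a3, a chain of the beaded collagen VI filaments, was called in KO males, and its call went with a large value in 414. Its KO males had 5.86, 4.93, 7.41 and 7.61 CPM with CTD against 37.5, 8.90, 10.3 and 9.21 CPM with HFC, a log2 change of 1.35 (SE 0.48, edgeR adjusted p = 0.0494) that was 0.55 (SE 0.30, adjusted p = 0.22) without that liver. Col6a1, Col6a2, Col8a1, Col12a1, Col14a1 and Col16a1 passed in none of the 4 diet comparisons, with changes of -0.16 to 0.76. Col14a1, a fibril-associated collagen, had the highest level of the class, from 34.5 to 92.5 CPM in males and from 19.8 to 66.2 CPM in females.

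Elastic fibres consist of elastin on a scaffold of fibrillin. Fbn1, fibrillin 1, rose in KO males from 2.96, 2.49, 2.83 and 2.26 CPM to 10.9, 5.21, 5.58 and 5.10 CPM, a log2 change of 1.35 (SE 0.29, edgeR adjusted p = 0.00265). It was one of the 5 genes still called without 414, where the change was 1.01 (SE 0.25, adjusted p = 0.00926). Exons of an antisense gene cover 20.1% of the Fbn1 exon bases, and whether counting used strand is not given in the sources used here. Eln, Fbln1, Fbln2, Fbln5 and Ltbp2 passed in none of the 4 diet comparisons, with changes from -0.42 to 0.97.

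Of the 6 matrix glycoproteins, 5 were higher in KO males and the sixth, Fn1, was lower, beside 15.5% and 13.6% of all genes. Without 414, Postn was the 1 still called higher and Fn1 was still called lower. Postn, periostin, a product of activated fibroblasts, rose from 5.91, 6.13, 6.34 and 7.71 CPM to 18.1, 9.52, 11.7 and 11.4 CPM (0.96, SE 0.19, edgeR adjusted p = 0.00152). Sparc rose from 40.4, 46.8, 47.1 and 44.9 CPM to 119, 64.2, 59.7 and 67.4 CPM (0.79, SE 0.27, adjusted p = 0.0415). Thbs1, thrombospondin 1, an activator of latent TGF-beta, rose from 0.798, 0.797, 1.71 and 1.13 CPM to 5.29, 1.89, 3.39 and 3.51 CPM (1.67, SE 0.59, adjusted p = 0.0455). In these 3 genes the KO males did not overlap between diets. Thbs2 rose by 0.88 (SE 0.31, adjusted p = 0.0419) and Tnc by 1.85 (SE 0.65, adjusted p = 0.0444), and both overlapped. Tnc, tenascin C, appears in wounds and provisional matrix. Its KO males had 0.657, 0.249, 1.32 and 0.736 CPM with CTD against 6.78, 1.31, 1.53 and 1.06 CPM with HFC, and without 414 the change was 0.81 (SE 0.49, adjusted p = 0.275). In KO females Tnc rose by 1.89 (SE 0.54, adjusted p = 0.0467), from 0.177, 0.833 and 0.283 CPM to 2.69, 1.33 and 0.848 CPM. The highest CTD female, at 0.833 CPM, and the lowest HFC female, at 0.848 CPM, are nearly equal there.

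Fn1 (chr1) fell in KO males from 2140, 2430, 2100 and 1960 CPM to 1790, 1810, 1610 and 1450 CPM, a log2 change of -0.38 (SE 0.13, edgeR adjusted p = 0.0341). The change was -0.34 (SE 0.13, adjusted p = 0.0732) in CT males, -0.17 (SE 0.21, adjusted p = 0.692) in CT females and -0.72 (SE 0.21, adjusted p = 0.0543) in KO females. Scaled to library totals the CT female value was 0.13. Unlike the other glycoproteins, Fn1 was not raised in liver 414, which at 1790 CPM sat within the KO HFC range. Genes of the hepatocyte list also fell with the diet: 2 of 8 in CT males, 4 of 8 in KO males, 1 of 8 in CT females and 4 of 8 in KO females. Without 414 it was 2 of 8 in KO males. Of all tested genes, 9.40%, 13.6%, 1.26% and 4.65% were called lower in CT males, KO males, CT females and KO females. The part of the hepatocyte list in the Fn1 and Col18a1 values was not tested.

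**Figure D3:**
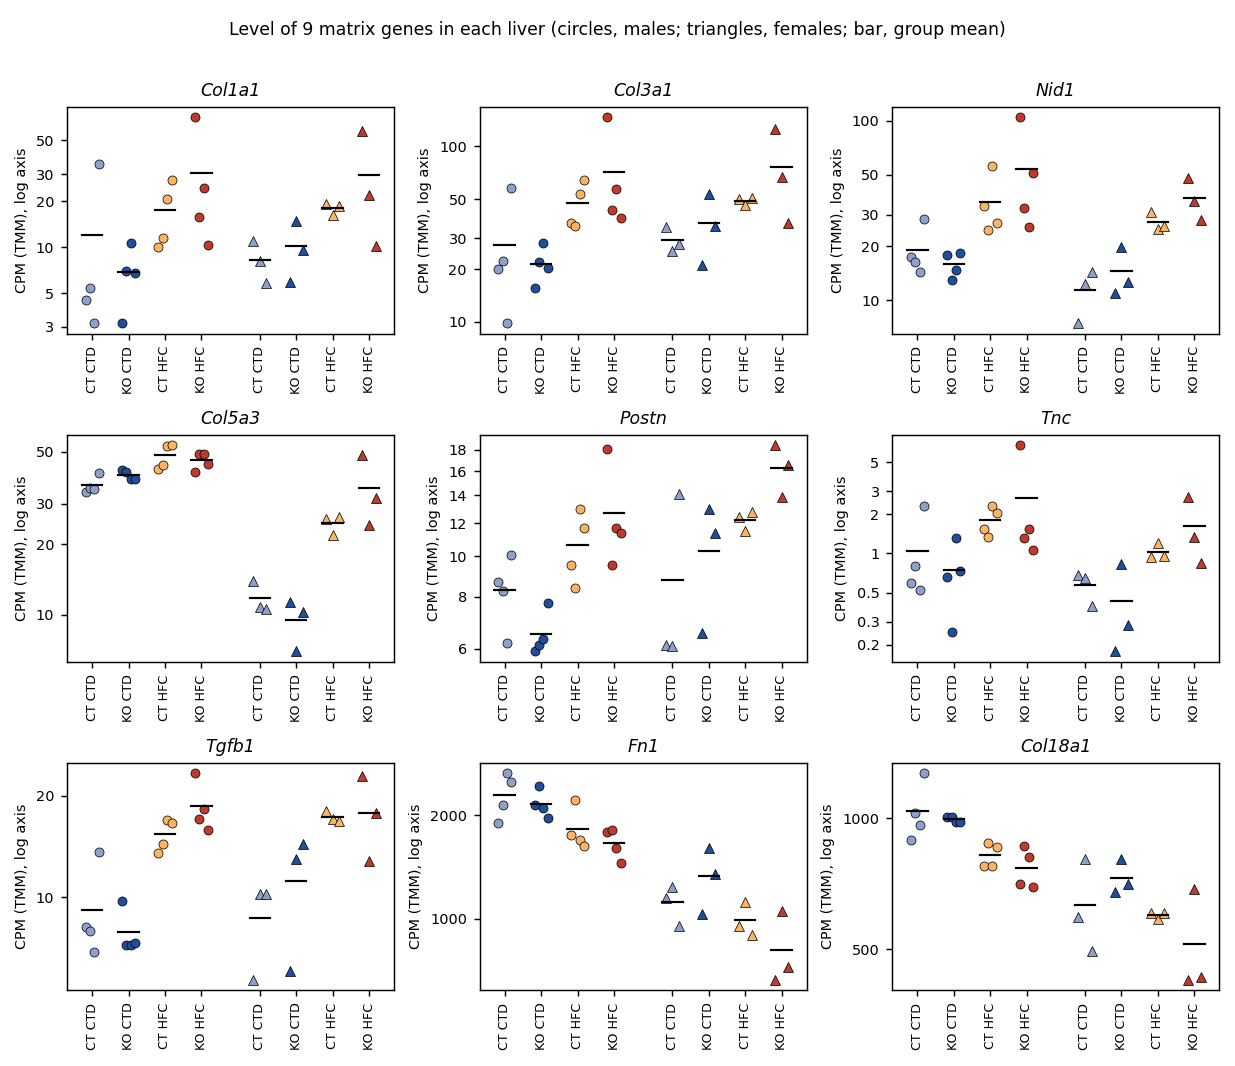
TMM-scaled CPM of 9 matrix genes in each liver on log axes, with males as circles, females as triangles and a bar at each group mean. Nid1 and Tgfb1 are higher on HFC and Fn1 and Col18a1 lower on HFC in males, while Col1a1 and Col3a1 show single high livers in the CT CTD, KO HFC male and KO HFC female groups.

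Proteoglycans bind collagen fibrils and growth factors. Decorin, Dcn, which limits fibril width and binds TGF-beta, did not pass in any diet comparison: 0.18 (SE 0.13, edgeR adjusted p = 0.358) in CT males, 0.28 (SE 0.13, adjusted p = 0.121) in KO males, 0.14 (SE 0.24) in CT females and 0.03 (SE 0.24) in KO females. Its male livers ranged from 109 to 201 CPM, and the highest was 414. Lum, lumican, rose in KO males by 0.75 (SE 0.26, adjusted p = 0.0434), with 21.9 CPM in 414 and 8.52 to 9.88 CPM in the other 3, which overlap the KO CTD range of 5.58 to 9.02 CPM. Vcan, versican, a large proteoglycan of provisional matrix, rose there by 1.80 (SE 0.59, adjusted p = 0.0294), also with overlap. Neither Lum nor Vcan was called without 414. Vcan rests on 1 to 57 counts per male library, so its values carry a large counting error. Bgn did not pass in any diet comparison, with changes of 0.06 to 0.47.

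Lysyl oxidases cross-link collagen and elastin. Loxl2 rose in KO males from 3.47, 3.39, 4.19 and 3.73 CPM to 12.6, 5.41, 5.54 and 5.18 CPM, a log2 change of 0.96 (SE 0.32, edgeR adjusted p = 0.0362), with no overlap. Loxl2 was not called without 414. Lox itself was read from 1 to 85 counts per male library. Lox in CT males was 0.0495, 0.199, 0.26 and 2.34 CPM with CTD against 0.335, 0.309, 0.559 and 0.498 CPM with HFC. All 4 HFC livers exceeded 3 of the CTD livers and were far below the fourth, CT CTD 320, and the change was -0.77 (SE 0.92, adjusted p = 0.601). Without 320 the sign turned, to 1.32. In KO males Lox changed by 2.03 (SE 0.94, adjusted p = 0.123), and in females by 2.56 (SE 0.96, adjusted p = 0.164) in CT and 2.38 (SE 0.82, adjusted p = 0.0893) in KO. Loxl1 did not pass in any of the 4.

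Among the TGF-beta ligands, Tgfb1 (chr7) had the smallest adjusted p of all 44 genes in KO males. It rose there from 9.71, 7.23, 7.22 and 7.32 CPM to 23.3, 17.0, 18.2 and 15.8 CPM, a log2 change of 1.24 (SE 0.18, edgeR adjusted p = 0.00011). Without 414 it was 1.11 (SE 0.18, adjusted p = 0.000417). CT males rose from 8.17, 7.92, 6.87 and 13.6 CPM to 13.5, 14.4, 16.9 and 16.6 CPM, by 0.75 (SE 0.18, adjusted p = 0.00893), and 1 CTD liver, 320, lay within the HFC range. In females the change was 0.99 (SE 0.32, adjusted p = 0.122) in CT, from 5.69, 10.2 and 10.2 to 18, 17.1 and 16.8 CPM without overlap, and 0.67 (SE 0.31, adjusted p = 0.201) in KO. Tgfb1 is also made by macrophages, and of 8 macrophage markers 7 rose in CT males and 8 in KO males, and 8 in each without 320 or 414 (Adgre1 by 1.02, SE 0.16, and 1.66, SE 0.16). Of all tested genes, 10.6% were called higher in CT males and 15.5% in KO males. The part of the macrophage markers in the Tgfb1 values was not tested. Tgfb2 and Tgfb3 did not pass in any diet comparison, and Tgfb2 ranged from -1.23 in KO females to 0.94 in KO males.

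Counted over the 4 diet comparisons, 5 genes were called in more than 1: Col5a3 and Nid1 in 3 each, and Col18a1, Tnc and Tgfb1 in 2 each. The share of all tested genes called in more than 1 was not counted. Some of these calls were lost when 1 liver was left out. Tnc was not called without 414 in KO males or without 412 in KO females. Col18a1 was not called without 320 in CT males or without 414 in KO males, but was called in KO males without both. The proximal promoters of these 5 genes are shown because each gene was called more than once. Each line is the 150 bases upstream of the gene's outermost annotated start, 5′ to 3′ on the gene's strand, from RefSeq on GRCm38.p6. Whether these livers use that start was not tested. Capitals mark the letters of a TATA box (TATAAA) or a CCAAT box (CCAAT, here also as its reverse complement), wherever they lie in the window. The windows are chr9:20815068-20815217 (minus strand) for Col5a3, chr13:13437401-13437550 (plus) for Nid1, chr10:77166549-77166698 (minus) for Col18a1, chr4:64047016-64047165 (minus) for Tnc and chr7:25686852-25687001 (plus) for Tgfb1.
Col5a3: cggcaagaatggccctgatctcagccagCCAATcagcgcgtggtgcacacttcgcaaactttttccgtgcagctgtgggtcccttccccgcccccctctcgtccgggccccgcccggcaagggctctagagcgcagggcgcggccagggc
Nid1: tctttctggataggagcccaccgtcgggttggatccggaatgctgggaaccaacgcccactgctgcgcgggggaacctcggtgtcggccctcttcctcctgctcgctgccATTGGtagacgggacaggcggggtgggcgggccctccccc
Col18a1: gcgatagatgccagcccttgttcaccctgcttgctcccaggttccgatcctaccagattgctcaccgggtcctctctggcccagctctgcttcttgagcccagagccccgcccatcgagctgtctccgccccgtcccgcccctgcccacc
Tnc: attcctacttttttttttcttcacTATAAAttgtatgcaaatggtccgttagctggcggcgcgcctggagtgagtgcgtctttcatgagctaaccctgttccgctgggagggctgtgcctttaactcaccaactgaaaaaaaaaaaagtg
Tgfb1: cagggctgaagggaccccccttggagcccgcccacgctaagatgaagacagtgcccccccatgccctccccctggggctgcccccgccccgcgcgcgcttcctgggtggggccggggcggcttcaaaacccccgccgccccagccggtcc

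Col5a3 and Nid1 each hold 1 CCAAT match. Tnc holds 1 TATAAA match, near the upstream end of its window and far from the annotated start. The Col18a1 and Tgfb1 windows hold none of the motifs searched. GC content is 44.7% in the Tnc window and 66% to 76% in the other 4. Of the 44 matrix genes, 30 are in the RefSeq promoter table and 24 have a usable window. Both strands were searched. CCAAT occurs at any position in 41.7% of those 24 windows and in 27.7% of 15775 windows of all genes. TATAAA occurs in 20.8% and 6.84%, the core SMAD box CAGAC in 37.5% and 27.0%, and the AP-1 motif TGANTCA in 0 of 24 and 3.97%. No motif contains another, and a match is a description of the sequence.

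The second comparison is between genotypes, since the title of the series ties endothelial c-Myc loss to fibrosis. No matrix gene passed between KO and CT on HFC or on CTD, in males or females, by edgeR, DESeq2 or limma. The same holds across all tested genes in edgeR, where 0% were called in each of the 4 comparisons. At an unadjusted p under 0.05 the matrix genes numbered 1 on HFC and 0 on CTD in males, beside 653 and 949 of all genes, and 0 and 0 in females, beside 311 and 446. DESeq2 called 3 and 11 genes overall in males and 0 and 1 in females. The 1 male gene was Tgfb2, at 3.46, 0.984, 1.70 and 1.14 CPM in KO HFC and 0.377, 1.15, 1.32 and 0.996 CPM in CT HFC, a log2 difference of 0.93 (SE 0.39, edgeR adjusted p = 0.958) with overlap. Tgfb2 rests on 9 to 93 counts per male library.

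On HFC in males, 37 of 44 genes were higher in KO than in CT, with a median log2 difference of 0.30. Without KO HFC 414 only 17 were higher and 27 lower, with a median of -0.03. Col1a1 on HFC was 0.81 higher in KO (95% interval -0.86 to 2.49, edgeR adjusted p = 0.959), a ratio of 1.76 (0.550 to 5.61). Col3a1 differed by 0.60 (-0.52 to 1.72), Col1a2 by 0.46 (-0.59 to 1.52), Sparc by 0.34 (-0.24 to 0.92) and Col4a1 by 0.39 (-0.18 to 0.97). The upper ends for Col1a1 and Col3a1 correspond to ratios of 5.61 and 3.29, so differences short of those sizes are within the error of these animals. Tgfb1 differed by 0.28 (-0.10 to 0.65), Dcn by 0.16 (-0.11 to 0.43) and Fn1 by -0.13 (-0.40 to 0.14), which are narrower. Lox differed by 1.48 (-0.38 to 3.34). Without 414 the values were -0.05 for Col1a1, -0.07 for Col1a2 and -0.03 for Col3a1.

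Females on HFC gave 38 of 44 genes higher in KO, with a median of 0.23. Col1a1 differed by 0.73 (95% interval -0.46 to 1.92, edgeR adjusted p = 1), Col1a2 by 0.48 (-0.43 to 1.39), Col3a1 by 0.64 (-0.27 to 1.56) and Col4a1 by 0.45 (-0.08 to 0.99). Sparc differed by 0.12 (-0.37 to 0.61), Dcn by 0.06 (-0.46 to 0.58), Fn1 by -0.29 (-0.75 to 0.17), Lox by 0.73 (-0.75 to 2.21) and Tgfb1 by 0.04 (-0.63 to 0.70). Without KO HFC 412 the median was 0.08, with 31 genes higher and 13 lower, and Col1a1 was at -0.16. In both sexes the KO and CT livers on HFC overlapped for these 3 collagens. Without KO HFC 419, in contrast, the median was 0.39. Without KO HFC 413 it was 0.14, with 5 matrix genes at an unadjusted p under 0.05, beside 1471 of all genes. In that fit edgeR called 9 of all genes, none of them a matrix gene. On CTD the median difference was -0.12 in males, with 30 of 44 lower in KO, and 0.22 in females, with 37 higher. Both directions rested on 1 liver: the male median was 0.14 without CT CTD 320, and the female median was -0.03 without KO CTD 309.

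**Figure D4:**
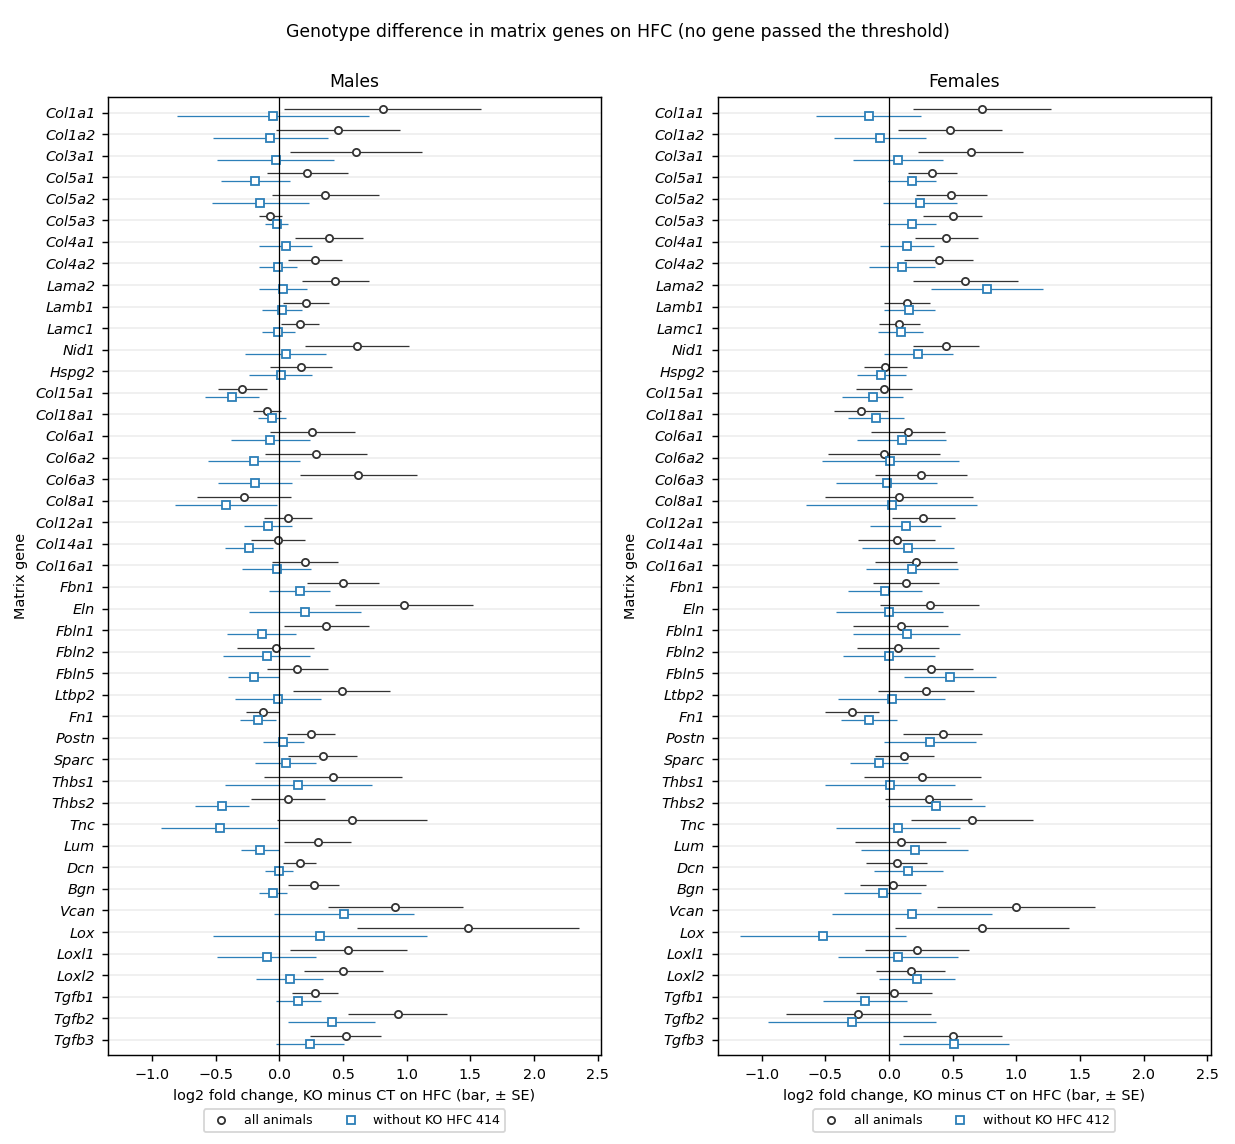
Log2 difference between KO and CT on HFC for each matrix gene, with bars of 1 standard error, using all animals (black circles) and leaving out KO HFC 414 in males or KO HFC 412 in females (blue squares). With all animals 37 of 44 male and 38 of 44 female values lie above 0, without 414 or 412 they are 17 and 31, and none passed the threshold.

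More matrix genes were called for the diet in KO than in CT males, so the difference between the diet effects was tested as an interaction. No matrix gene passed in either sex by edgeR, DESeq2 or limma, and 0% of all tested genes passed in edgeR. Unadjusted p under 0.05 was reached by 2 matrix genes in males, Postn (0.60, adjusted p = 0.809) and Fbn1 (0.91, adjusted p = 0.809), beside 852 of all genes. In females it was 1, Col5a3 (0.81, adjusted p = 0.992), beside 546. DESeq2 called 5 of all genes in males and 0 in females. The median interaction over the 44 was 0.46 in males and 0.06 in females. The male value was 0.07 without 414, 0.16 without 320 and -0.19 without both. The female value ran from -0.13 to 0.26 on leaving out 1 liver, and was below 0 without KO HFC 412 (-0.13), KO HFC 413 (-0.13) or KO CTD 307 (-0.12), among others.

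The fixed lists of related genes place the matrix genes beside the machinery that makes and senses collagen. Among 21 tested genes of collagen processing, 2 rose and 3 fell with HFC in CT males, and 5 rose and 2 fell in KO males. These are 9.52% higher and 14.3% lower in CT males, near the 10.6% and 9.40% of all genes, and 23.8% and 9.52% in KO males, beside 15.5% and 13.6%. Without 414, 3 rose and 2 fell in KO males, and without 320, 3 rose and 3 fell in CT males. Of 20 tested in females, 1 fell in CT, and 2 rose and 1 fell in KO. Bmp1, which trims procollagen ends, fell in all 4 comparisons, by log2 -0.89 (SE 0.12, edgeR adjusted p = 0.000146) in CT males, -1.03 (SE 0.12) in KO males, -0.68 (SE 0.16) in CT females and -1.13 (SE 0.16) in KO females. P4ha1, a prolyl hydroxylase that stabilises the collagen helix, rose by 0.64 (SE 0.16, adjusted p = 0.00789) in CT males and 0.65 (SE 0.16) in KO males. Crtap, part of a further hydroxylation complex, rose in KO males by 0.84 (SE 0.22) and in KO females by 0.95 (SE 0.26, edgeR adjusted p = 0.0423). The KO female call of Crtap was kept without KO HFC 413 or 419 and lost without 412.

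Of 26 tested genes of TGF-beta activation and signalling, 2 rose and 1 fell in CT males and 6 rose and 1 fell in KO males. That is 7.69% higher and 3.85% lower in CT males, below the shares of all genes, and 23.1% and 3.85% in KO males. Without 414, 4 rose and 1 fell in KO males, and without 320, 5 rose and 1 fell in CT males. In females 1 rose in KO, Tgif1 (0.92, SE 0.17, edgeR adjusted p = 0.00658), and in CT 5 reached an unadjusted p under 0.05 with no adjusted call. Tgfbr3, the betaglycan co-receptor, fell by -0.66 (SE 0.12) in CT males and -0.75 (SE 0.12) in KO males. Nrros, which holds latent TGF-beta on macrophages, rose by 0.47 (SE 0.14) and 0.77 (SE 0.14). Tgfbi, a target gene of TGF-beta, rose in KO males by 0.63 (SE 0.13). Among 15 matrix receptors, 3 rose and 3 fell in CT males, 5 rose and 5 fell in KO males, and 3 fell in KO females. Each CT male count is 20%, beside 10.6% of all genes called higher and 9.40% lower. Each KO male count is 33.3%, beside 15.5% and 13.6%, and the KO female count is 20%, beside 4.65% lower. Without 414 the KO male counts were 3 and 2, and without 320 the CT male counts were 4 and 3. In KO females no receptor was called without KO HFC 412 or 419, and 2 rose and 5 fell without 413. Cd44, the hyaluronan receptor, rose by 1.42 (SE 0.16) in CT males and 2.00 (SE 0.16) in KO males, and Sdc2, a syndecan, fell by -0.37 (SE 0.08), -0.44 (SE 0.08) and, in KO females, -0.53 (SE 0.14).

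Markers of the cells that make matrix were read in the same fits. Of all tested genes, 10.6% were called higher in CT males, 15.5% in KO males, 0.936% in CT females and 3.94% in KO females. Of 10 stellate cell markers, 2 rose in KO males (20%, near the 15.5% of all genes), Cygb (0.64, SE 0.18, edgeR adjusted p = 0.0154) and Des (0.45, SE 0.15, adjusted p = 0.0335). Neither was called without 414, where 2 of the 10 reached an unadjusted p under 0.05 and none the adjusted threshold in edgeR. No stellate marker was called in CT males or in females by edgeR, with 0, 1 and 1 at an unadjusted p under 0.05 in CT males, CT females and KO females. Their summed level was 118 to 199 CPM in CT CTD, 147 to 194 in CT HFC, 132 to 163 in KO CTD and 150 to 236 CPM in KO HFC males, with 414 at 236. Myofibroblast markers such as Acta2, smooth muscle actin, stayed low. Acta2 was at 0.892 to 2.20 CPM in CT CTD males and 1.75 to 3.31 CPM in KO HFC males, which differ in both diet and genotype. The summed level of that list in males was 8.27 to 11.4 CPM in CT CTD and 7.09 to 8.79 CPM in CT HFC. It was 7.56 to 11.5 CPM in KO CTD and 9.42 to 15.7 CPM in KO HFC. None of 3 tested markers passed in any diet comparison by edgeR. Unadjusted p under 0.05 was reached there by 1 of the 3 in KO males and by 1 in KO females. Portal fibroblast markers, in contrast, rose in males for 3 of 5 in each genotype, with Mfap4 at 1.45 (SE 0.37) in CT and 1.63 (SE 0.36) in KO and Thy1 at 0.88 (SE 0.24) and 1.90 (SE 0.25). Without 414 the KO males had 2 of 5, Mfap4 and Thy1, and without 320 the CT males had 2 of 5. In CT females none of 5 was called, with 3 at an unadjusted p under 0.05 in edgeR. In KO females 1 of 5 rose, Thy1 by 1.39 (SE 0.38, edgeR adjusted p = 0.0413). That call was kept without KO HFC 413 and lost without 412 or 419.

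Liver 414 was also the highest male in several of these marker sums. Its portal fibroblast sum was 24.9 CPM against 13.3 to 15.5 CPM in the other KO HFC males, its myofibroblast sum 15.7 against 9.42 to 11.1 CPM, and its cholangiocyte sum 235 against 74.2 to 130 CPM. In KO males 3 of 6 cholangiocyte markers were called higher with the diet, Spp1 (1.47, SE 0.40), Epcam (1.23, SE 0.37) and Sox9 (0.93, SE 0.33), beside 15.5% of all genes. Without 414 none was called higher and 1, Krt7, was called lower. In CT males none passed in edgeR and 1 reached an unadjusted p under 0.05, or 2 without 320. Macrophage markers did not single 414 out, at 967 CPM against 731 to 913. CT CTD 320 had the highest sum of its group for mesothelial and capsule markers (26.8 CPM against 6.81 to 16.8), cholangiocytes (81.5 against 31.3 to 55.8), macrophages (456 against 309 to 422), endothelium (337 against 269 to 318), portal fibroblasts (11.7 against 7.44 to 10.7) and myofibroblasts (11.4 against 8.27 to 10.2). Its stellate sum, 172 CPM, lay within the group. In KO males 5 of 6 mesothelial markers fell with HFC, also without 414, Upk1b by -1.99 (SE 0.48), beside 13.6% of all genes called lower. All 6 were also below 0 in CT males (median -0.81), CT females (-1.02) and KO females (-0.41). None was called there with every liver kept. The mesothelial sum of the KO CTD males was 13.2 to 30.9 CPM. How much of each liver's matrix level goes with the share of ducts, portal tissue or capsule in the piece sampled was not tested. Of 10 endothelial markers, 1 rose in CT males (2 without 320) and 3 in KO males (3 without 414). The CT share of 10% is near the 10.6% of all genes called higher, and the KO share of 30% stands beside 15.5%. No endothelial marker was called in females by edgeR, with 5 in CT and 3 in KO at an unadjusted p under 0.05. The pancreas markers Prss2, Cpa1 and Pnlip had no count in any male library, and 1 of that list of 5 was tested, Cela1, which fell in all 4 diet comparisons. Of 4 fat markers 1 was tested, Plin4, which passed in none, and Adipoq was at 0.0498 CPM or less in males.

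**Figure D5:**
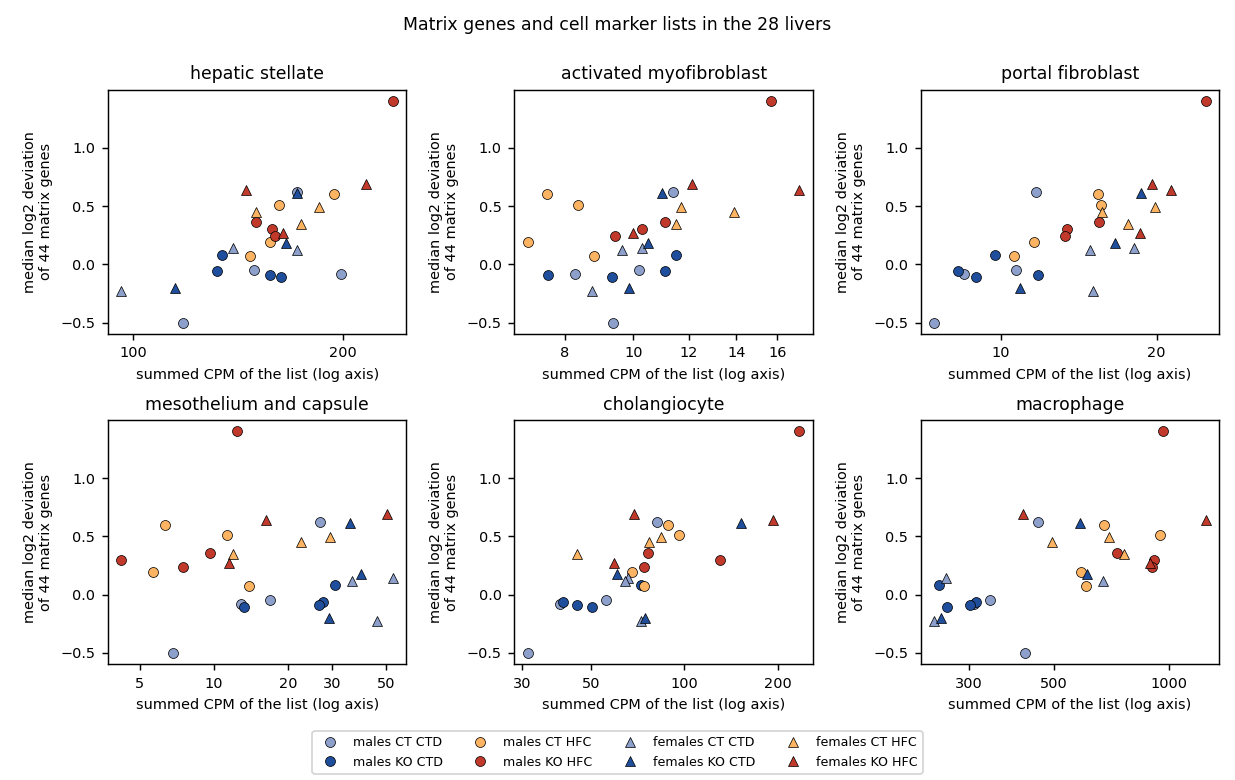
Median log2 deviation of the 44 matrix genes in each of the 28 livers (vertical) against the summed CPM of 6 marker lists (horizontal, log axes), with males as circles, females as triangles and groups by colour. Male KO HFC 414, at 1.40, is the highest liver on the vertical axis in every panel and the highest on the horizontal axis for the stellate, portal fibroblast and cholangiocyte lists.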

How the data were processed

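RNA from 28 livers was analysed in 2 tables, males and females. The authors deposited gene counts and CPM values side by side, and the deposited CPM values equal count over library total within 1e-04. FastQC, edgeR and genome build GRCm38 (mm10) are named per the submitters' processing notes. Which aligner, counter, annotation and strand setting were used is not given in the sources used here. Each sex was fitted alone on the deposited counts with edgeR 4.0.16 in R 4.3.3: TMM scaling, filterByExpr with a minimum count of 10, 4 group means, a robust quasi-likelihood F test, and Benjamini-Hochberg adjustment over all tested genes at 0.05. Standard errors were taken as the log2 change over the square root of F. Printed CPM are TMM-scaled, and levels per kilobase use GENCODE M21 exon unions. The members and lists were chosen with earlier results of these data known. Named genes are every called member up to 12 per comparison by adjusted p, beside Col1a1, Col1a2, Col3a1, Col4a1, Fn1, Dcn, Sparc, Lox and Tgfb1 always. Of the related lists, up to 4 called genes by adjusted p were named. In KO males all 18 called members are named, beyond the first 12 after their values were seen. Alternatives were size factors (RLE), library totals, no low-count filter, DESeq2 1.42.0, limma 3.58.1, only the groups compared, and leaving out each animal. Leaving out CT CTD 320 together with KO HFC 414 was added after seeing the data, as were the counts of related lists without single livers. The fit was tested on simulated data. The value of 1 gene of a related list is not reported here.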

Additional observations from a re-analysis of the deposited data

Results flagged for a closer look

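Within each male group of 4, the highest and lowest livers were compared with the nearest of the others by Dixon's ratio for 23 named genes and for the median deviation over the 44 matrix genes. Of 96 groups tested, 16 had a liver that stood apart. For independent, normally distributed groups about 1 in 20, or 4.8, would be flagged. The genes here share the same livers, many were named because they were called, and their CPM were not logged. The 16 therefore cannot be set against 4.8. Livers of 3 per group, the females, were not tested this way.

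KO HFC 414 held 10 of the 16. Its median deviation was 1.4 log2 units against 0.24 to 0.36 in the other 3 KO HFC males. Sparc was 119 CPM there against 59.7 to 67.4 CPM in the others, Col4a2 44.1 against 22.9 to 23.7, Col6a3 37.5 against 8.9 to 10.3 and Lum 21.9 against 8.52 to 9.88. Loxl2 was 12.6 CPM against 5.18 to 5.54, Fbn1 10.9 against 5.1 to 5.58, Tnc 6.78 against 1.06 to 1.53, Thbs2 6.03 against 1.86 to 2.46 and Lox 3.16 against 0.367 to 0.744.

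CT CTD 320 held 4, all on the control diet: Col1a1 at 34.9 CPM against 3.17 to 5.38 in the other CT CTD males, Col1a2 at 36.1 against 6.97 to 11.9, Tnc at 2.29 against 0.52 to 0.797 and Lox at 2.34 against 0.0495 to 0.26. KO CTD 303 had Col4a1 at 31.1 CPM against 26.6 to 26.9, and KO CTD 298 had Tgfb1 at 9.71 CPM against 7.22 to 7.32. Both of those are small differences beside closely spaced livers.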

How the results depend on the processing

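The number of matrix genes called for the diet moved with the scaling, the tool and single animals. CT males had 3 called, 2 to 5 on leaving out 1 animal, and 19 without CT CTD 320 and KO HFC 414. KO males had 18 called, 28 with library totals, 11 with no low-count filter and 6 to 19 on leaving out 1 animal. CT females had 2 called, 8 with library totals, 1 with no low-count filter, 4 with DESeq2, 8 with only the groups compared and 0 to 1 on leaving out 1 animal. KO females had 3 called, 16 with library totals, 7 with DESeq2 and 2 to 10 on leaving out 1 animal. The removal of an animal leaves fewer samples. The cause of the other moves was not tested. Matrix gene calls between genotypes and for the interaction were 0 under every alternative run. Calls over all genes reached 11 in males on CTD with DESeq2 and 9 in females on HFC without KO HFC 413.

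Of 936 alternative values of 69 named gene results, 815 kept direction and side of the threshold, 63 fell below it, 37 passed it and 21 changed sign. Sign changes touched only values that had not passed. For the diet, Lox in CT males was 0.23 with limma, 1.33 without 320 and 414, and -1.15 to 1.32 on leaving out 1 animal. Fn1 in CT females was 0.13 with library totals. On leaving out 1 animal, the female Dcn change was -0.06 to 0.4 (CT) or -0.16 to 0.17 (KO). Between genotypes on HFC in males, leaving out 1 animal gave -0.05 to 1.12 for Col1a1, -0.07 to 0.67 for Col1a2 and -0.03 to 0.8 for Col3a1, and without 320 and 414 they were -0.04, -0.07 and -0.02. In females it gave -0.16 to 1.14 for Col1a1, -0.07 to 0.84 for Col1a2, -0.07 to 0.18 for Dcn, -0.08 to 0.28 for Sparc, -0.52 to 1.24 for Lox and -0.19 to 0.23 for Tgfb1, which was 0 with limma.

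Over all genes, calls for the diet in CT males were 2820, 4537 with library totals and 1753 without CT HFC 418. CT females had 307, 1832 with library totals, 919 with DESeq2, 804 with only the groups compared and 72 to 417 on leaving out 1 animal. KO females had 1202, 3738, 1884 and 435 in the same order, and 565 to 2671. No paired analysis was possible because each animal has its own number. Depth limits Lox, Vcan, Col8a1, Tnc and Tgfb2, the 5 members with a library under 10 counts in each sex.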
